A study of Mus musculus with 12 samples.

Results

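The interleukin-1 (IL-1) family genes described here are 9 genes of bone marrow-derived macrophages (BMDMs), taken by symbol from a table of 55335 mouse genes: the cytokines Il1a, Il1b and Il18, the soluble inhibitors Il1rn and Il18bp, and the receptor genes Il1r1, Il1r2, Il1rap and Il1rl1. Each symbol matched 1 row. Of the 9 genes, 8 reached at least 1 FPKM, a measure of transcript abundance scaled by transcript length and library size, in at least 3 of the 12 libraries and were tested, among 12622 such genes in all. Il1r2 stayed under 1 FPKM in all 12 libraries, and Il1rl1 passed only through the 6 Nlrp3-/- libraries. A count over the tested genes therefore leaves out Il1r2 and holds 1 gene that was let in by the genotype in which it is high.

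IL-1α and IL-1β are inflammatory cytokines that bind the receptor encoded by Il1r1, which signals through MyD88 and NF-κB once the accessory chain encoded by Il1rap has joined it. Macrophages make pro-IL-1β after a Toll-like receptor ligand such as lipopolysaccharide (LPS), and extracellular ATP then opens the P2X7 channel and triggers the NLRP3 inflammasome, in which caspase-1 cleaves pro-IL-1β and pro-IL-18. The family carries its own brakes: the receptor antagonist encoded by Il1rn, the decoy receptor encoded by Il1r2, which binds IL-1 and does not signal, and the IL-18 binding protein encoded by Il18bp. Il1rl1 encodes ST2, the receptor of IL-33, which exists as a membrane form and as a soluble form that captures IL-33.

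RNA was sequenced from wild-type BMDMs and from Nlrp3-/- BMDMs, each untreated (control) or given LPS for 4 hours and then ATP for 30 min (LPS+ATP), with 3 libraries in each of the 4 groups. The cells were grown with macrophage colony-stimulating factor from the bone marrow of C57BL/6 mice aged 8 weeks, and Nlrp3-/- is a constitutive knockout, so every cell in those cultures lacked the gene. The treatment times are those of the sample labels, and the written methods give longer ones. Whether libraries of a group came from separate mice is not stated, so the spread between them may be technical. Wild-type and Nlrp3-/- mice came from different suppliers.

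Nlrp3 itself ran from 9.24 to 33.7 FPKM over the 6 wild-type libraries, and each of the 6 Nlrp3-/- libraries listed it at 0. The genotypes also differed in the sex of the donors, since Xist ran from 32.8 to 56.3 FPKM in the Nlrp3-/- libraries against at most 0.0416 in wild-type, while the Y-linked Ddx3y ran from 7.72 to 10.9 FPKM in wild-type and was listed at 0 in Nlrp3-/-. Nnt, a mitochondrial transhydrogenase gene that is partly deleted in the C57BL/6J substrain, ran from 4.09 to 10.3 FPKM in wild-type and from 0.670 to 1.47 FPKM in Nlrp3-/- libraries. Knockout, sex, substrain and mouse source cannot be told apart in any comparison of genotypes. Macrophage genes were abundant in every group, with Adgre1 (F4/80) between 181.5 and 468.3 FPKM and Csf1r between 160.8 and 257.7 FPKM. Of the 8 macrophage markers, 6 were lower in every Nlrp3-/- library than in any wild-type library in control cells and 1, Mertk, was higher. With LPS+ATP 6 were lower, Mertk now among them, and Cd14 was higher. How many of all genes separated in this way was not counted. By the limma test described below (adjusted p under 0.05), 5 of the 7 markers with 1 row each were lower in Nlrp3-/- control cells and 0 higher. Of all tested genes 14.5% were lower and 33.3% higher. With LPS+ATP 4 of the 7 were lower and 0 higher, against 12.6% and 35.9% of all. The 8 macrophage markers summed to 19974.1 to 21159.1 FPKM in wild-type control and 19070.9 to 19318.8 FPKM in Nlrp3-/- control, and to 11792.6 to 11862.1 and 11118.2 to 11366.4 FPKM with LPS+ATP. Most of each sum was Lyz2, with means of 18463.7 and 17692.9 FPKM in control and 9471.5 and 9308.7 FPKM with LPS+ATP. Adgre1, Fcgr1 and Cd14 rose with LPS+ATP in both genotypes, and Cd68, Mertk and Lyz2 fell. Csf1r fell in wild-type and rose slightly in Nlrp3-/-. The 7 fibroblast markers summed to 162.4 to 193.5 FPKM in wild-type and to 926.5 to 1204.9 FPKM in Nlrp3-/- libraries. The 9 neutrophil markers summed to 343.4 to 379.8 FPKM in wild-type control and 328.5 to 343.1 FPKM with LPS+ATP. In Nlrp3-/- their sum was 1836.2 to 1883.6 and 705.2 to 714.1 FPKM. With LPS+ATP in wild-type, 7 of the 8 tested neutrophil markers fell, against 53.1% of all tested genes, while mean Lcn2 rose from 9.96 to 217.7 FPKM. In bulk RNA, fewer cells of a type and less RNA per cell cannot be told apart.

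The windows just before the transcription starts of Il1a, Il1b and Il1rl1 are shown here, because the first pair had the largest changes of the 9 genes with LPS+ATP and Il1rl1 has 2 annotated promoters. Il1r1 and Il1rn, not shown, also have several annotated promoters. The sequences are RefSeq's on GRCm38.p6, 250 bases each, read 5′ to 3′ toward the start, with base -1 next to it. Capitals mark matches to TATAAA (the TATA box) and TTNNGNAA (a C/EBP-like motif), searched on both strands.
Il1a, chr2:129309973-129310222, minus strand: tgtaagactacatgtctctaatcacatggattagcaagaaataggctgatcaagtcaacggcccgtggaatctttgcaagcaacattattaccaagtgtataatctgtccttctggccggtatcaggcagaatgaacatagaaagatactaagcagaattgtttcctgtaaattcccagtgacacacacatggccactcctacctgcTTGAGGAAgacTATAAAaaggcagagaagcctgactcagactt
Il1b, chr2:129371140-129371389, minus strand: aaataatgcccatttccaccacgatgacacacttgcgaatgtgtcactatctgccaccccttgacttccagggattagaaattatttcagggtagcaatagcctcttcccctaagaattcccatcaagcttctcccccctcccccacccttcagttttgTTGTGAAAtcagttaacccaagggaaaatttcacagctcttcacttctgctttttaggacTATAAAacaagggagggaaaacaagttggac
Il1rl1, upstream start, chr1:40429320-40429569, plus strand: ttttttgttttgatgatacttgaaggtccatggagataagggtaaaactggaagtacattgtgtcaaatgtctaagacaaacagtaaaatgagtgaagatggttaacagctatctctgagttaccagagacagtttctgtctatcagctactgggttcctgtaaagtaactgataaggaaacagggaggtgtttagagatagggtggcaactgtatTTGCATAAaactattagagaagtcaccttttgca
Il1rl1, downstream start, chr1:40439379-40439628, plus strand: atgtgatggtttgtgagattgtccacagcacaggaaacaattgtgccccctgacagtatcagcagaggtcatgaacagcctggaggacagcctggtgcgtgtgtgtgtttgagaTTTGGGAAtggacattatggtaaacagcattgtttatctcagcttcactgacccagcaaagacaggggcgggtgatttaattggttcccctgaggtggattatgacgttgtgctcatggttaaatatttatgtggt

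Il1a and Il1b both held a TATAAA, with its first base at -32 and -31. Among 13 such windows of the 9 genes, 3 held TATAAA (those of Il18, Il1a and Il1b), against 12.4% of all 32851 promoters of the table, and neither Il1rl1 window did. The Il18 match lay on the opposite strand and farther from the start, with its first base at -175. TTNNGNAA stood in 9 of the 13 windows (those of Il18bp, Il1a, Il1b, Il1r1, Il1rl1 and Il1rn) and in 36.8% of all promoters. The 9 are not separate finds, since neighbouring windows of Il1rn overlap and the same TTGGGGAA is counted in each. The AP-1 motif TGANTCA stood in those of Il1a and Il1rn (6.75% of all), GAGGAA, the core bound by PU.1, in that of Il1a alone, where it overlaps the marked TTNNGNAA match (23.3% of all), the NF-κB consensus in one window of Il1r1 (3.90% of all), and GAAANNGAA in 0 windows (7.13% of all). A match is a run of letters and says nothing of binding in these cells.

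By the GENCODE annotation of GRCm38, Il1a (chr2:129299610-129309972, minus strand) and Il1b (chr2:129364570-129371139, minus strand) are neighbours on chromosome 2, where Il1rn (chr2:24336853-24351494, plus strand) also lies. The receptor genes Il1r2 (chr1:40074079-40125231), Il1r1 (chr1:40225080-40317257) and Il1rl1 (chr1:40429570-40465415) lie in this order on the plus strand of chromosome 1, and Il1rap is at chr16:26581704-26730117, plus strand. Il18 is at chr9:50554827-50581840, plus strand, and Il18bp at chr7:102014885-102018690, minus strand. Exons of Il1a, Il1b, Il18bp and Il1rap overlap a gene on the other strand (Gm14023, Il1bos, Numa1 and Gm20319). Strand use in the counting is not stated, so reads of such a pair may not be separated. Il1rl1 has coding sequences of 1701, 1011 and 195 bases, the longer ones matching membrane and soluble ST2 in order, and Il1rn of 156 to 534 bases; FPKM per gene sums all of these forms.

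In wild-type BMDMs, LPS+ATP raised 6 of the 8 tested IL-1 family genes (Il1a, Il1b, Il1rn, Il18, Il18bp and Il1rap) and lowered Il1r1. In Nlrp3-/- BMDMs it raised 7, the same 6 and Il1rl1, and again lowered Il1r1. Genes were called at a Benjamini-Hochberg adjusted p under 0.05, over all 12622 genes, by limma on log2(FPKM + 1). For comparison, 23.3% of all tested genes rose and 53.1% fell with LPS+ATP in wild-type, and 20.6% rose and 53.8% fell in Nlrp3-/-. A log2 fold change of at least 1 besides was met by 5 of the 8 genes in wild-type (Il1a, Il1b, Il1rn, Il18 and Il18bp) against 19.4% of all genes, and by 6 in Nlrp3-/- (with Il1r1) against 14.8%. The median change of all tested genes was -0.26 in wild-type and -0.24 in Nlrp3-/- on the log2 scale.

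**Figure D1:**
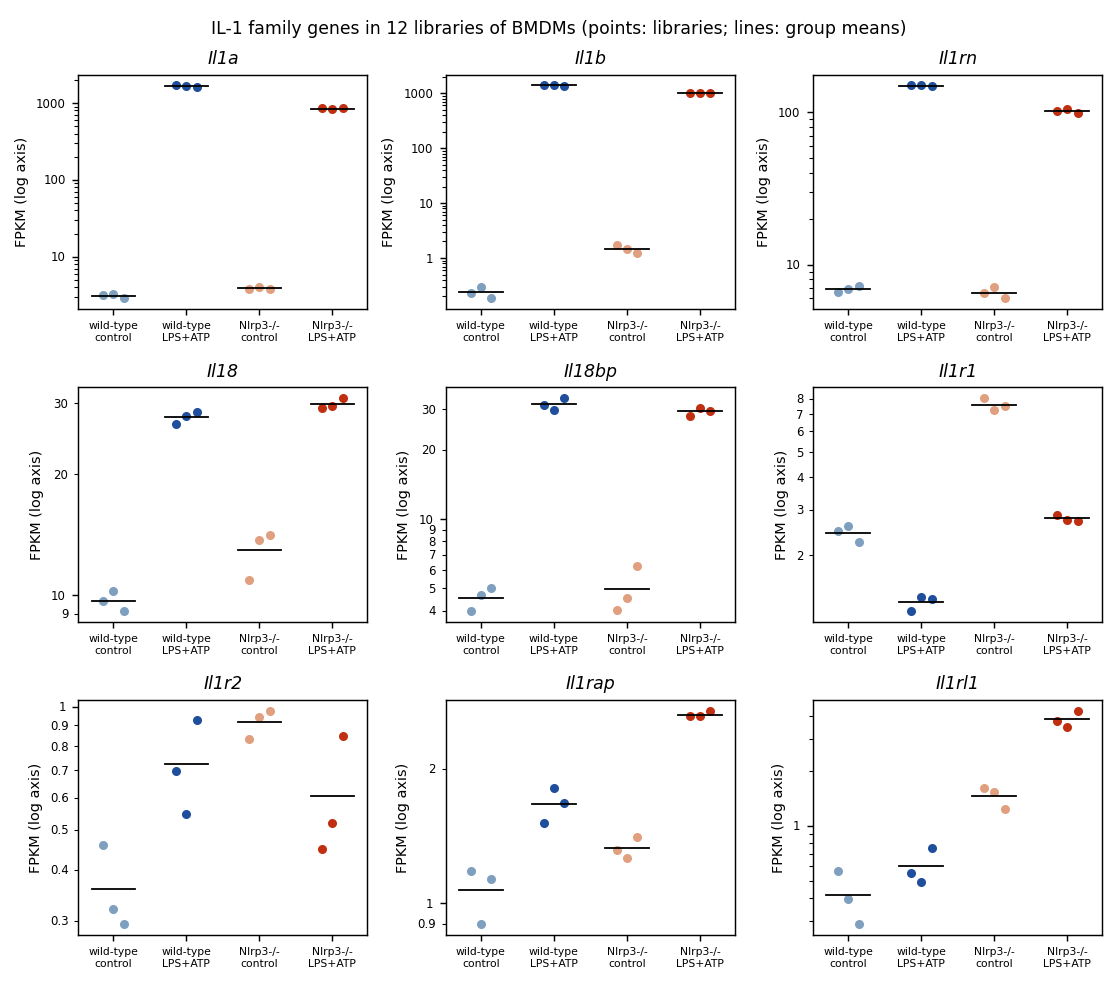
FPKM (log axis) of the 9 IL-1 family genes in the 12 libraries, 1 panel a gene, with points for libraries and lines for group means. Il1a and Il1b rise from a few FPKM or less to between 832.8 and 1706.3 FPKM with LPS+ATP, while Il1r1 falls in both genotypes and lies higher in Nlrp3-/-.

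Il1b was the gene with the largest change of all tested genes in wild-type and the second largest in Nlrp3-/-. Control wild-type libraries held 0.235, 0.298 and 0.186 FPKM of Il1b, and LPS+ATP libraries 1388, 1404 and 1366 FPKM. Control Nlrp3-/- libraries held 1.73, 1.44 and 1.22 FPKM, and LPS+ATP libraries 996.5, 994.0 and 995.3 FPKM. The 4 groups did not overlap: wild-type was the lower genotype before and the higher one after costimulation. The ratio of mean FPKM with LPS+ATP to control was 5792 in wild-type and 679.7 in Nlrp3-/-. On the log2(FPKM + 1) scale, which understates low levels, the rise was 10.13 (SE 0.06, adjusted p = 3.60e-16) in wild-type and 8.66 (SE 0.06, adjusted p = 1.76e-15) in Nlrp3-/-.

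Between genotypes, mean Il1b was 6.12 times the wild-type mean in control Nlrp3-/- BMDMs and 0.718 times with LPS+ATP. The corresponding log2 differences were 0.99 (SE 0.06, adjusted p = 1.61e-07) and -0.48 (SE 0.06, adjusted p = 7.26e-05). The interaction, which is the rise in Nlrp3-/- minus that in wild-type, was -1.46 (SE 0.09, adjusted p = 8.59e-07). The control levels weigh in this: with a pseudocount of 0.1 in place of 1, the control difference was 2.21 and the interaction -2.68.

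Il1a, which encodes the IL-1 form that is active without caspase-1 cleavage, was already present in control cells. Wild-type control libraries had 3.14, 3.30 and 2.88 FPKM and LPS+ATP libraries 1706, 1674 and 1640 FPKM. Nlrp3-/- control libraries had 3.77, 4.05 and 3.76 FPKM and LPS+ATP libraries 850.4, 832.8 and 851.4 FPKM. With LPS+ATP, each Nlrp3-/- library thus held about 0.505 of the wild-type mean, with no overlap. The rise was 8.67 (SE 0.04, adjusted p = 8.88e-17) on the log2 scale in wild-type, where it was in place 3 of all tested genes by size of change, and 7.44 (SE 0.04, adjusted p = 2.67e-16) in Nlrp3-/-, in place 6. Mean FPKM rose 538.9-fold and 218.8-fold.

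The genotype difference in Il1a turned direction with costimulation, as that in Il1b did. It was 0.24 (SE 0.04, adjusted p = 0.000365) in control cells and -0.99 (SE 0.04, adjusted p = 5.80e-09) with LPS+ATP, and the interaction was -1.23 (SE 0.06, adjusted p = 1.29e-07). With LPS+ATP, Il1a stood in place 15 and Il1b in place 18 of all genes by mean FPKM in wild-type, and in places 32 and 25 in Nlrp3-/-.

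Il1rn, which encodes the receptor antagonist, rose less than the cytokines it opposes. Its control level was 6.60, 6.94 and 7.22 FPKM in the wild-type libraries and 6.54, 7.09 and 6.03 FPKM in Nlrp3-/-. With LPS+ATP it reached 150.6, 150.0 and 148.2 FPKM in wild-type and 102.3, 104.9 and 98.7 FPKM in Nlrp3-/-. Control groups overlapped, and LPS+ATP groups did not. The log2 rise was 4.25 (SE 0.05, adjusted p = 3.29e-14) in wild-type and 3.77 (SE 0.05, adjusted p = 1.10e-13) in Nlrp3-/-. Between genotypes the difference was -0.07 (95% interval -0.18 to 0.04, adjusted p = 0.283) in control cells and -0.55 (SE 0.05, adjusted p = 4.14e-06) with LPS+ATP, and the interaction was -0.48 (SE 0.07, adjusted p = 0.000522). Under median-ratio scaling the control difference was -0.20 and passed the threshold (adjusted p = 0.00737).

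Il18 was the most abundant of the 9 genes in control cells of both genotypes. Wild-type libraries had 9.67, 10.3 and 9.15 FPKM in control and 26.6, 27.8 and 28.5 FPKM with LPS+ATP. Nlrp3-/- libraries had 10.9, 13.8 and 14.1 FPKM in control and 29.2, 29.6 and 30.9 FPKM with LPS+ATP. It rose by 1.42 (SE 0.08, adjusted p = 1.66e-08) in wild-type and by 1.15 (SE 0.08, adjusted p = 1.39e-07) in Nlrp3-/- on the log2 scale. The control difference between genotypes was 0.38 (SE 0.08, adjusted p = 0.00224). With LPS+ATP the groups did not overlap, yet the difference was 0.11 (95% interval -0.07 to 0.28, adjusted p = 0.291). The interaction was -0.27 (95% interval -0.52 to -0.02) and missed the threshold after adjustment (adjusted p = 0.102), although without Nlrp3-/- control replicate 1, the lowest of its group, it was -0.38 (adjusted p = 0.00328).

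Il18bp, whose product binds and neutralises IL-18, rose more than Il18 in both genotypes. Control levels were 3.99, 4.67 and 5.03 FPKM in wild-type and 4.04, 4.57 and 6.26 FPKM in Nlrp3-/-. With LPS+ATP they were 31.2, 29.7 and 33.5 FPKM and 28.1, 30.4 and 29.5 FPKM. The genotypes overlapped in both states. The log2 rise was 2.55 (SE 0.12, adjusted p = 3.13e-09) in wild-type and 2.37 (SE 0.12, adjusted p = 8.21e-09) in Nlrp3-/-, and no genotype difference was detected: 0.08 (95% interval -0.17 to 0.34, adjusted p = 0.591) in control cells, -0.10 (95% interval -0.36 to 0.16, adjusted p = 0.535) with LPS+ATP, and an interaction of -0.18 (95% interval -0.55 to 0.18, adjusted p = 0.466).

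The balance of each cytokine and its inhibitor moved in opposite directions, as ratios of FPKM within each library show. Il1rn over the sum of Il1a and Il1b was 1.93 to 2.36 in wild-type control and 0.0487 to 0.0493 in wild-type LPS+ATP libraries. In Nlrp3-/- it was 1.19 to 1.29 and then 0.0534 to 0.0574. The antagonist transcript thus exceeded those of both cytokines in each control library and was far below them in each LPS+ATP library. For Il18bp over Il18 the ratio was 0.413 to 0.550 in wild-type control and 1.07 to 1.17 with LPS+ATP, and in Nlrp3-/- 0.332 to 0.443 and 0.956 to 1.03. Il1a over Il1b went from 11.1 to 15.5 in wild-type control to 1.19 to 1.23 with LPS+ATP, and from 2.17 to 3.08 in Nlrp3-/- control to 0.838 to 0.855, so Il1a led in each wild-type LPS+ATP library and Il1b in each Nlrp3-/- one. These ratios are descriptions of transcript levels and were not tested.

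**Figure D2:**
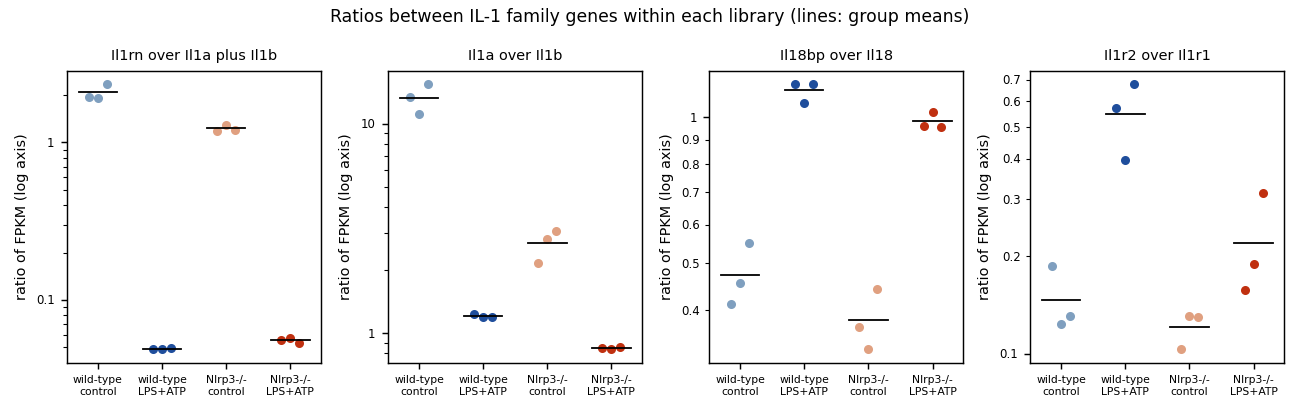
Ratios of FPKM between IL-1 family genes in each library (log axes), with points for libraries and lines for group means. With LPS+ATP the ratio of Il1rn to the summed cytokines falls to between 0.0487 and 0.0574, while that of Il18bp to Il18 rises to between 0.956 and 1.17.

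Between genotypes in control cells, 5 of the 8 tested genes were higher in Nlrp3-/- (Il1a, Il1b, Il18, Il1r1 and Il1rl1) against 33.3% of all tested genes, and 0 were lower by limma, also at an unadjusted p under 0.05, against 14.5% of all. Il1r1 was the 1 gene past the fold limit (6.71% of all genes), with Il1b at 0.99 just under it, so that the count was 2 without wild-type control replicate 2 or without Nlrp3-/- control replicate 3. With LPS+ATP, 3 were higher in Nlrp3-/- (Il1r1, Il1rap and Il1rl1), near the 35.9% of all genes, and 3 were lower (Il1a, Il1b and Il1rn) against 12.6% of all. Il1rl1 was the 1 gene past the fold limit (5.05% of all), with Il1a at -0.99 just under it. Il1rl1, counted as higher in both states, was tested only because its Nlrp3-/- libraries reached 1 FPKM, so its part in these counts is no support. The interaction passed for 6 genes, higher for Il1rap and Il1rl1 (14.7% of all genes) and lower for Il1a, Il1b, Il1rn and Il1r1 (13% of all), and 2 of these, Il1a and Il1b, passed the fold limit (2.15% of all).

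**Figure D3:**
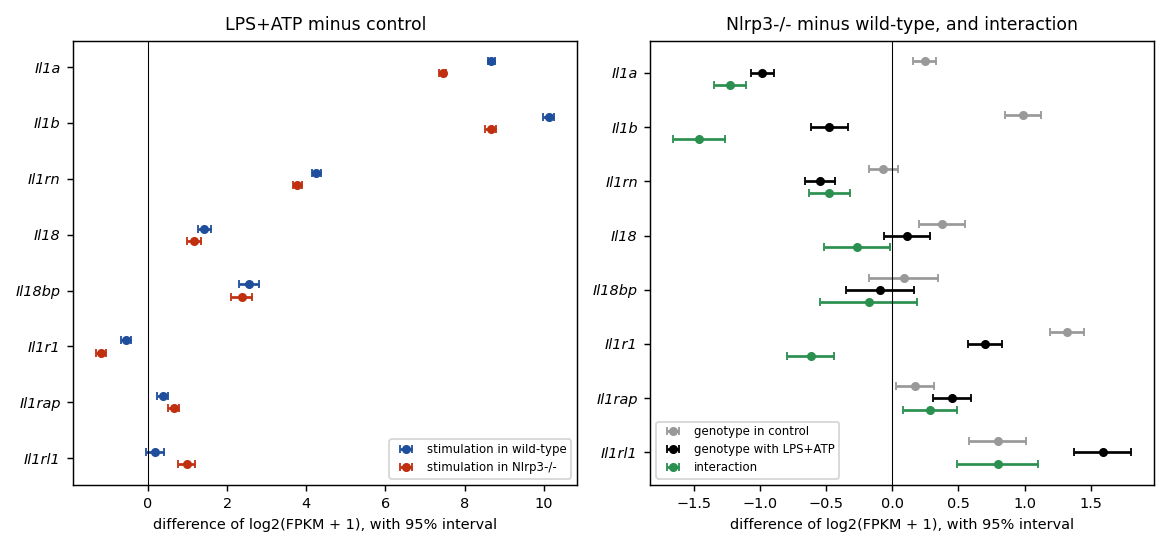
Differences of log2(FPKM + 1) for the 8 tested genes with 95% intervals from limma, for stimulation in each genotype (left) and for genotype in each state and the interaction (right). Il1a and Il1b have negative interactions of -1.23 and -1.46, and Il1rl1 a positive one of 0.80.

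Il1r1, the signalling receptor of IL-1, was the tested gene of the family that fell with costimulation. Wild-type libraries went from 2.48, 2.60 and 2.25 FPKM to 1.22, 1.38 and 1.36 FPKM. Nlrp3-/- libraries went from 8.07, 7.23 and 7.51 FPKM to 2.87, 2.75 and 2.71 FPKM. Even after its fall, each Nlrp3-/- library held more Il1r1 than any wild-type control library. The log2 change was -0.57 (SE 0.06, adjusted p = 3.05e-06) in wild-type and -1.19 (SE 0.06, adjusted p = 6.00e-09) in Nlrp3-/-, and the genotype difference 1.32 (SE 0.06, adjusted p = 7.35e-09) in control cells and 0.70 (SE 0.06, adjusted p = 1.55e-06) with LPS+ATP. The interaction was -0.62 (SE 0.08, adjusted p = 0.000203).

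Fibroblast genes moved with Il1r1 between genotypes. All 7 of 7 fibroblast markers were higher in every Nlrp3-/- library than in any wild-type library in both states. Limma called all 7 higher in control cells and with LPS+ATP, against 33.3% and 35.9% of all tested genes. Lum, 1 of the 7, was tested only because its 6 Nlrp3-/- libraries reached 1 FPKM, so its part in these counts is no support. Col1a1, which encodes a chain of type I collagen, was 70.2 to 82.4 FPKM in wild-type and 505.4 to 660.0 FPKM in Nlrp3-/- libraries. The 2 tested genes whose levels over the 12 libraries were most like those of Il1r1 were Sfrp2, a secreted Wnt modulator (Pearson r = 0.996), and Foxc1, a forkhead transcription factor (r = 0.996). With LPS+ATP the summed fibroblast markers went from 162.4 to 167.7 FPKM up to 190.8 to 193.5 FPKM in wild-type, where Il1r1 fell, and from 1188.2 to 1204.9 FPKM down to 926.5 to 942.2 FPKM in Nlrp3-/-, where Il1r1 fell too. The part of these cells in the level of Il1r1 was not tested.

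Il1rl1, which encodes ST2, was set apart by genotype in both states. Wild-type libraries had 0.566, 0.396 and 0.290 FPKM in control and 0.550, 0.490 and 0.759 FPKM with LPS+ATP, and these groups overlapped. Nlrp3-/- libraries had 1.62, 1.53 and 1.237 FPKM in control and 3.73, 3.49 and 4.26 FPKM with LPS+ATP, each above every wild-type library. The genotype difference was 0.80 (SE 0.10, adjusted p = 4.37e-05) in control cells and 1.59 (SE 0.10, adjusted p = 1.71e-07) with LPS+ATP, and mean FPKM was 3.50 and 6.38 times that of wild-type. Only the Nlrp3-/- libraries let Il1rl1 into the test, so these p-values are not free of that choice. Costimulation raised it in Nlrp3-/- by 0.97 (SE 0.10, adjusted p = 3.95e-06). In wild-type the change was 0.18 (95% interval -0.04 to 0.39, adjusted p = 0.126), which became 0.25 (adjusted p = 0.0476) without wild-type control replicate 1. The interaction was 0.80 (SE 0.14, adjusted p = 0.00153). With a pseudocount of 0.1 the genotype difference was 1.62 in control cells and 2.50 with LPS+ATP.

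Mast cells and basophils carry ST2, and their 10 markers summed to 0.877 to 2.61 FPKM in wild-type libraries, to 10.5 to 12.2 FPKM in Nlrp3-/- control and to 4.48 to 5.12 FPKM in Nlrp3-/- LPS+ATP libraries. In control cells 4 of the 10 were higher in every Nlrp3-/- library, and 2 of 10 with LPS+ATP, Mcpt8, a basophil protease, among them at 6.43 to 8.26 FPKM and 3.32 to 4.15 FPKM. Of the 3 tested (Cpa3, Kit and Mcpt8), 3 were called higher in control cells and 2 with LPS+ATP (33.3% and 35.9% of all tested genes). Cpa3 and Kit reached 1 FPKM only in the 3 Nlrp3-/- control libraries, and Mcpt8 passed the filter only with its Nlrp3-/- libraries counted. These calls are therefore no support. Mcpt8 made up most of the sum in each Nlrp3-/- library. Tpsb2, Cma1 and Mcpt4, proteases of mature mast cells, were listed at 0 in all 12 libraries, and Fcer1a and Ms4a2, also on the list, did not exceed 0.197 and 0.117 FPKM. The part of these cells in the level of Il1rl1 was not tested. The genes most like Il1rl1 over the 12 libraries were Pdia6, a disulfide isomerase of the endoplasmic reticulum (r = 0.988), and Gm16867 (r = 0.987). Which of the 2 Il1rl1 promoters shown above the reads came from cannot be read from a value per gene.

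**Figure D4:**
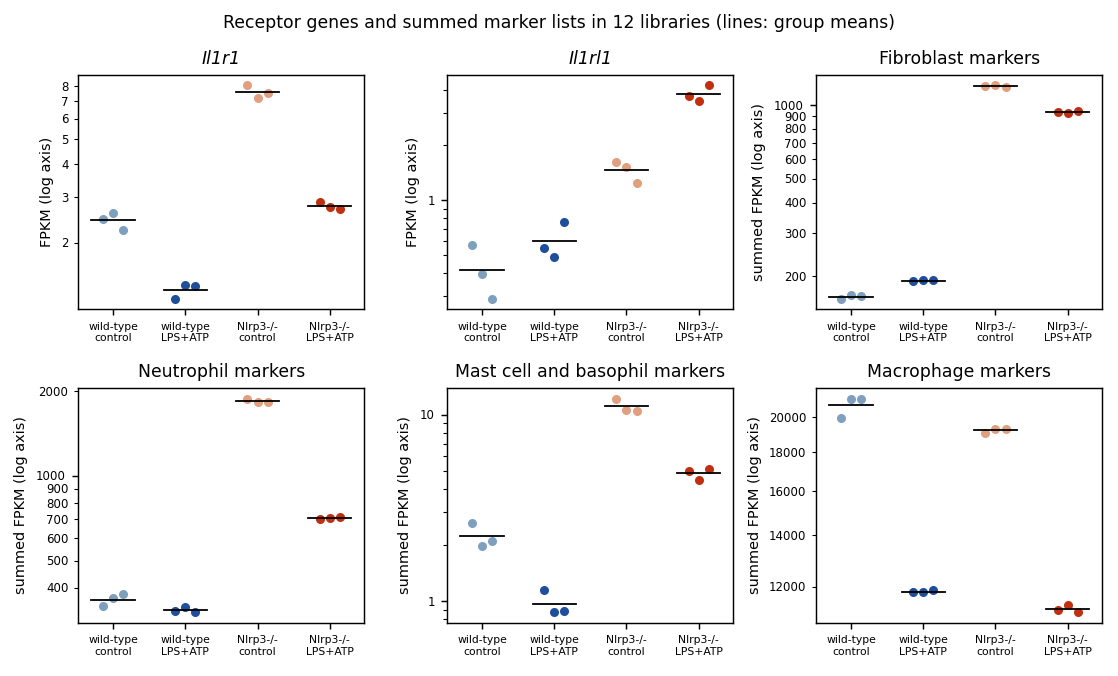
FPKM of Il1r1 and Il1rl1 and the summed FPKM of 4 marker lists in each library (log axes), with points for libraries and lines for group means. Fibroblast markers sum to at most 193.5 FPKM in wild-type and at least 926.5 FPKM in Nlrp3-/- libraries, and Il1rl1 lies at 3.49 to 4.26 FPKM in Nlrp3-/- LPS+ATP libraries.

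Il1rap, the accessory chain shared by the IL-1, IL-33 and IL-36 receptors, changed by less than 1 on the log2 scale in each comparison. Wild-type libraries had 1.18, 0.899 and 1.13 FPKM in control and 1.52, 1.81 and 1.67 FPKM with LPS+ATP. Nlrp3-/- libraries had 1.32, 1.26 and 1.41 FPKM in control and 2.62, 2.62 and 2.70 FPKM with LPS+ATP. The 4 groups did not overlap, and the rise was 0.37 (SE 0.07, adjusted p = 0.000343) in wild-type and 0.65 (SE 0.07, adjusted p = 3.88e-06) in Nlrp3-/-. The genotype difference was 0.17 (95% interval 0.03 to 0.32, adjusted p = 0.0516) in control cells, where it passed without wild-type control replicate 1 (0.21, adjusted p = 0.0338) or wild-type LPS+ATP replicate 1 (0.17, adjusted p = 0.0488), and 0.45 (SE 0.07, adjusted p = 0.000159) with LPS+ATP. The interaction of 0.28 (SE 0.09, adjusted p = 0.0432) was lost in 16 of 20 alternatives, 10 of them the removal of a single library from any of the 4 groups, with adjusted p from 0.0145 to 0.127 over all 20.

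Il1r2, the decoy receptor, was too low to enter the test. It was 0.461, 0.320 and 0.295 FPKM in wild-type control, 0.697, 0.546 and 0.926 FPKM in wild-type LPS+ATP, 0.833, 0.946 and 0.976 FPKM in Nlrp3-/- control and 0.450, 0.520 and 0.847 FPKM in Nlrp3-/- LPS+ATP libraries. Only the control groups of the 2 genotypes and the 2 wild-type groups stood clear of each other. In a fit with no filter on low values, Il1r2 was higher with LPS+ATP in wild-type by 0.34 (adjusted p = 0.0314) and higher in Nlrp3-/- control cells by 0.50 (adjusted p = 0.00655). Nlrp3-/- cells gave -0.26 with LPS+ATP (adjusted p = 0.0837), the genotype difference with LPS+ATP was -0.10 (adjusted p = 0.616) and the interaction -0.60 (adjusted p = 0.0302). The ratio of Il1r2 to Il1r1 was 0.123 to 0.186 in wild-type control, 0.396 to 0.679 with LPS+ATP, 0.103 to 0.131 in Nlrp3-/- control and 0.157 to 0.313 with LPS+ATP, so signalling receptor transcripts outnumbered decoy transcripts in each library.

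The order of the 9 genes by FPKM, a scale per length, changed with costimulation. Wild-type control cells had Il18, Il1rn, Il18bp, Il1a, Il1r1 and Il1rap in falling order, each apart from the next over its libraries, and then Il1rl1, Il1r2 and Il1b, which overlapped. In wild-type LPS+ATP cells the order was Il1a, Il1b, Il1rn, Il18bp, Il18, Il1rap and Il1r1, followed by Il1r2 and Il1rl1, which overlapped. Il1b moved from the last place to the second. In Nlrp3-/- control cells Il18 and Il1r1 led. Il1rn and Il1a came behind them, apart from each other but each overlapping Il18bp, then Il1b, Il1rl1 and Il1rap, which overlapped, and Il1r2 was lowest. In Nlrp3-/- LPS+ATP cells Il1b led Il1a and Il1rn, Il18 and Il18bp overlapped, and Il1rl1, Il1r1, Il1rap and Il1r2 followed.

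Over the 12 libraries, levels most like those of Il1b were found in Saa3, an acute-phase protein, and Ccl2, a monocyte chemokine (r = 0.9997 for both). For Il1a they were Cd69, an early activation marker, and Tnfrsf1b, a TNF receptor (r = 0.9995 for both), and for Il1rn Tnfrsf1b (r = 0.9995) and Mlkl, the effector of necroptosis (r = 0.9992). The others were Adhfe1 and Il13ra1, a chain of the IL-13 receptor, for Il18 (r = 0.996 and 0.994), Ubr4 and Gm9845 for Il18bp (r = 0.996 for both), and Hsp90b1, a chaperone of the endoplasmic reticulum, and Slco2a1 for Il1rap (r = 0.985 and 0.984). These values of r on log2(FPKM + 1) mostly restate 4 group levels of 3 libraries each.

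Other ligands and receptors of the family were few. Of 6 other ligand genes in the table, 2 were tested. Il1f9, which encodes IL-36γ, was 0.446, 0.916 and 0.481 FPKM in wild-type control and 29.0, 29.4 and 28.9 FPKM with LPS+ATP, and 2.79, 3.16 and 3.03 FPKM in Nlrp3-/- control and 39.3, 41.1 and 39.7 FPKM with LPS+ATP. It rose by 4.23 (SE 0.09, adjusted p = 3.62e-12) and 3.36 (SE 0.09, adjusted p = 3.27e-11), and was higher in Nlrp3-/- by 1.32 (adjusted p = 2.89e-07) in control cells and by 0.45 (adjusted p = 0.00162) with LPS+ATP, where Il1a and Il1b were lower. Il1f6, which encodes IL-36α, was listed at 0 in wild-type control, at up to 0.0555 FPKM in Nlrp3-/- control, and at 2.59 to 4.43 FPKM in LPS+ATP libraries. Il33, whose product binds ST2, did not exceed 0.179 FPKM in any library, and Il1f5, Il1f8 and Il1f10 were listed at 0. Of 6 other receptor genes, Il1rl2, the IL-36 receptor, rose by 0.76 (adjusted p = 1.90e-07) in wild-type and 0.25 (adjusted p = 0.00193) in Nlrp3-/- on the log2 scale. Il18rap, the accessory chain of the IL-18 receptor, was tested only because the 3 Nlrp3-/- control libraries reached 1 FPKM, at 1.85, 1.49 and 2.02 FPKM. It was 0.718 to 0.767 FPKM in wild-type control, 0.193 to 0.274 FPKM in wild-type LPS+ATP and 0.568 to 0.770 FPKM in Nlrp3-/- LPS+ATP libraries. The other 4 of the 6 stayed under 1 FPKM in every library.

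Among genes of IL-1 processing and release, 17 were tested, Nlrp3 included, which could not change in Nlrp3-/- cells. With LPS+ATP 8 rose and 8 fell in wild-type (23.3% and 53.1% of all tested genes), and 7 rose and 8 fell in Nlrp3-/- (20.6% and 53.8% of all). The largest rises in wild-type were those of Casp4 (caspase-11) at 2.68, Casp1 (caspase-1) at 1.85 and Nlrp3 at 1.67, and the largest falls those of Elane and Ctsg, neutrophil serine proteases that can cleave IL-1 family cytokines, at -2.06 and -1.53, and of P2rx7, the ATP-gated channel, at -1.40. Casp1 rose from 20.6 to 23.8 FPKM to 81.8 to 87.4 FPKM in wild-type and from 16.8 to 19.6 FPKM to 49.0 to 52.3 FPKM in Nlrp3-/-, and was lower in Nlrp3-/- with LPS+ATP by 0.72 (SE 0.07, adjusted p = 3.62e-06), as the cytokine genes Il1a and Il1b were.

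Between genotypes 5 of the 17 were higher and 5 lower in Nlrp3-/- control cells (33.3% and 14.5% of all tested genes). With LPS+ATP 3 were higher and 7 lower (35.9% and 12.6% of all), and there all 17 passed under median-ratio scaling. Nlrp3, the knocked-out gene, is counted among the lower genes in both states, which the design fixed. Elane, Ctsg and Prtn3, proteases of neutrophil granules, and Serpinb1a, which inhibits such proteases, were higher in Nlrp3-/- control cells by 3.70, 3.41, 3.31 and 1.67 on the log2 scale, each with an adjusted p of at most 5.45e-08. Elane, Ctsg and Prtn3 were higher with LPS+ATP too, by 0.98, 1.50 and 1.18, while Serpinb1a gave -0.15 (adjusted p = 0.213). The 9 neutrophil markers, Elane included, were all higher in every Nlrp3-/- control library than in any wild-type control library, and 7 of 9 with LPS+ATP. Of the 8 tested, 8 were called higher in control cells and 7 with LPS+ATP (33.3% and 35.9% of all tested genes). The part of neutrophils in these levels was not tested. The interaction was higher for 1 and lower for 7 of the 17 genes (14.7% and 13% of all). Nlrp3 is counted among the lower ones, where the value only mirrors its rise in wild-type.

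IL-1 receptor signalling genes numbered 31, all tested. In each genotype 16 rose and 9 fell with LPS+ATP, against 23.3% and 53.1% of all tested genes in wild-type and 20.6% and 53.8% in Nlrp3-/-. Tnfaip3 (A20), Nfkbia (IκBα) and Nfkbiz (IκBζ), regulators of NF-κB that are themselves its targets, rose most in wild-type, by 2.94 (SE 0.32), 2.64 (SE 0.04) and 2.45 (SE 0.04). The largest falls were those of Peli2, an E3 ubiquitin ligase, at -1.40, and of Irak1, a kinase of the receptor complex, and Tab1, which binds the kinase TAK1, both at -0.66. Between genotypes 7 were higher and 5 lower in control cells (33.3% and 14.5% of all) and likewise with LPS+ATP (35.9% and 12.6% of all), and Nfkbiz was the 1 gene past the fold limit, at 1.16 (SE 0.04, adjusted p = 3.02e-09) in Nlrp3-/- control cells. The interaction was higher for 3 and lower for 8 (14.7% and 13% of all). Under median-ratio scaling some of the small changes in this list turned direction, among them that of Tollip with LPS+ATP in wild-type (0.07), those of Tab3 (0.03), Chuk (0.10) and Mapk8 (0.18) in Nlrp3-/-, and the genotype difference of Nfkbia with LPS+ATP (-0.01).

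**Figure D5:**
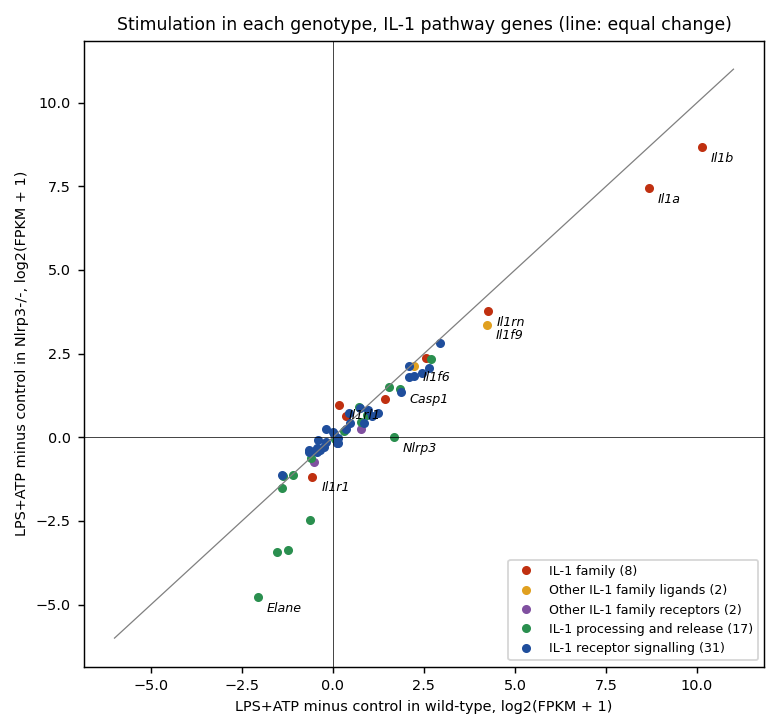
Change with LPS+ATP in wild-type (x axis) and in Nlrp3-/- (y axis), as differences of log2(FPKM + 1), for the IL-1 family genes and 4 lists of related genes, with the line of equal change. Il1b (10.13 and 8.66) and Il1a (8.67 and 7.44) lie far beyond the other genes and below the line, and Elane lies lowest.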

How the data were processed

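Total RNA of BMDMs of 2 genotypes, untreated or costimulated, went into 12 TruSeq libraries, 3 per group, grouped by the sample labels. The authors deposited 1 table of FPKM per gene and library. The submitters' processing notes name GRCm39 and DESeq2 1.24.0; the aligner and counter are not given in the sources used here, and 0 columns of values were left unused. FPKM divides by gene length and by library size, so a group of very abundant transcripts lowers the other values. Reads per library are not given; from the steps between low values, relative depth ran from 1 to 1.22. FPKM summed to 283278 to 299393 per library, and log values correlated at 0.990 to 0.993 within groups.

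Genes with at least 1 FPKM in at least 3 libraries entered 1 limma 3.58.1 fit (R 4.3.3) of log2(FPKM + 1), made up of 4 group means with a variance trend, and p-values were adjusted by Benjamini-Hochberg over all 12622 genes. SE and 95% intervals are from this fit. The members and lists were chosen with earlier results of these data known. All 9 members are named; of the related lists, all ligands and receptors tested, the 3 largest rises and falls with LPS+ATP in wild-type, and genes past a log2 difference of 1 between genotypes or in the interaction, are named; Il33, marker genes and the check genes were added. For each member the 2 genes with the highest Pearson r are given. Marker lists covered macrophages, fibroblasts, neutrophils, mast cells and basophils, T, ILC2 and NK cells (summed FPKM 47.5 to 74.0 in wild-type, 33.0 to 62.1 in Nlrp3-/-) and endothelium (4.69 to 5.71 and 9.07 to 13.2). On simulated data for the genotype comparison with LPS+ATP over 12622 genes, the fit called 72 of 100 genes changed by 0.5 and 95 of 100 changed by 1.5 on the log2 scale, and 6 unchanged genes. Alternatives were another pseudocount, filters, TPM, 2 other scalings (median-ratio, upper-quartile), a block for the replicate number, no variance trend, the compared groups alone, protein-coding genes off the sex chromosomes (chosen after seeing the data) and each library left out. Annotation was GENCODE M21 (GRCm38), in which 55154 of the table's gene IDs were found, and promoters were RefSeq's (GRCm38.p6), found for all 9 genes. Coordinates on GRCm39 were not used here.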

Additional observations from a re-analysis of the deposited data

Results flagged for a closer look

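For 6 of the 8 tested IL-1 family genes the change with LPS+ATP differed between genotypes by the test of the difference itself, positive for 2 and negative for 4, against 14.7% and 13% of all tested genes. The interaction, the change in Nlrp3-/- minus that in wild-type on the log2(FPKM + 1) scale by limma, was -1.23 (adjusted p = 1.29e-07) for Il1a and -1.46 (adjusted p = 8.59e-07) for Il1b, which reached 844.9 and 995.2 FPKM on average in Nlrp3-/- against 1673 and 1386 FPKM in wild-type. It was -0.48 (adjusted p = 0.000522) for Il1rn and -0.62 (adjusted p = 0.000203) for Il1r1. The interaction was positive for Il1rl1, at 0.80 (adjusted p = 0.00153), which was tested only through its Nlrp3-/- libraries. It was also positive for Il1rap, at 0.28 (adjusted p = 0.0432), where the call was lost in 16 of 20 alternatives.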

How the results depend on the processing

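Over 22 alternatives, of 862 recomputed changes of the 8 tested members 835 kept their direction and side of the threshold, 16 lost the call, each time the interaction of Il1rap, 11 gained it and 0 reversed. The number of members past the fold limit moved from 1 in 2 comparisons: between genotypes in control cells it was 3 with a pseudocount of 0.1 and 3 with TPM, and 1 to 2 with each library left out in turn; with LPS+ATP it was 2 with a pseudocount of 0.1, 2 with upper-quartile scaling, 2 with median-ratio scaling, and 0 with a filter of at least 5 FPKM, which leaves out Il1rl1. The gained calls were the genotype difference of Il1rap in control cells in 6 alternatives, the change of Il1rl1 with LPS+ATP in wild-type in 3, and 1 each for Il1rn (genotype in control cells) and Il18 (interaction). Replicate numbers did not pair the libraries, with correlations of same-numbered deviations from -0.06 to 0.05 and 12 of 36 best matches to the own number; with a replicate block the interaction of Il1rap was 0.28 (adjusted p = 0.0659), and no other call of a member changed. Median-ratio scaling moved the median of all genes by 0.26 and 0.24 for stimulation in wild-type and Nlrp3-/-, and by -0.12 and -0.15 for genotype in control and LPS+ATP cells, and under it 10 changes of pathway genes reversed: with LPS+ATP in wild-type Tollip (0.07), in Nlrp3-/- Tab3 (0.03), Chuk (0.10) and Mapk8 (0.18), between genotypes in control cells Sqstm1 (-0.14), and with LPS+ATP Gsdmd (-0.18), Myd88 (-0.15), Ube2v1 (-0.13), Ikbkb (-0.15) and Nfkbia (-0.01); the cause was not tested. FPKM gives no read number, so no floor can be set for Il1b in wild-type control cells or for Il1r2.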
